A study of Oryza sativa Japonica Group with 14 samples.

Results

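H3K27me3 was compared between wild-type and jmj703 rice in the inflorescence meristem (IM), the growing point that replaces the shoot apical meristem (SAM) when the plant turns to flowering. The measurement was ChIP-seq, which counts sequenced fragments of chromatin pulled down with an antibody against the mark. The comparison used 2 of the 14 samples of the series, 1 H3K27me3 library of wild type (WT) and 1 of jmj703, each with its list of called peaks. Members were pairs of peaks that overlapped one to one, meaning that they shared at least 1 bp and that neither had a further partner in the other list. There were 8140 such pairs, made from 11157 WT IM peaks and 10745 jmj703 IM peaks, out of 42453 H3K27me3 peaks in the 4 H3K27me3 lists of the series.

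All plants had the background of the DongJin variety of japonica rice and were grown in the field. Apices came from the wild type or from jmj703, the T-DNA insertion line 3A-00550 of JMJ703. IM apices of 1 to 2 mm were dissected by hand at the 10 to 12 leaf stage, on 21 to 24 June for both genotypes. SAM and IM were collected from about 400 plants, the number behind each library not being given, and the insertion was represented by 1 line. WT IM and jmj703 IM H3K4me3 libraries, and the H3K27me3 libraries of WT SAM and of IM from SDG711 RNAi plants, were used only to describe the pairs. WT SAM apices, of up to 0.5 mm, were from the 6 to 7 leaf stage. SDG711 RNAi IM had the leaf stage and apex size of the other IM but was collected earlier, on 17 to 19 June. No expression data of jmj703 were analysed here, so the loss of JMJ703 itself was not checked.

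H3K27me3 is deposited by Polycomb repressive complex 2 and marks genes that are held silent, in plants often over the whole transcribed region of developmental genes. H3K4me3 marks the starts of active genes and is laid down by Trithorax-type methyltransferases. JMJ703 is a jumonji-type demethylase that removes methyl groups from H3K4, and SDG711 is a rice homologue of the catalytic subunit of Polycomb repressive complex 2. H3K27me3 is therefore not the direct substrate of JMJ703, and the comparison asks what the Polycomb mark looks like in the IM when an H3K4 demethylase is disrupted.

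The WT IM library held 22887617 tags after filtering and the jmj703 IM library 14337383. Each genotype had 1 library, so differences could not be set against replicate spread and none was tested. Intervals are given at 95% and cover counting error over tags or over peaks only, neighbouring peaks not being independent. The density of a peak is its number of tags per kb of called length per 1000000 filtered tags. The genome average on this scale is 2.49, from the effective genome size in the file headers. The share of tags inside peaks was 18.3% in WT IM and 19.4% in jmj703 IM. Coordinates follow the deposited files. No genome build for them was stated, so no gene is named and no sequence is shown.

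Most H3K27me3 of the IM was listed in both genotypes. The pairs made up 73.0% of the WT IM peaks and 75.8% of the jmj703 IM peaks, and they held 81.0% of the WT and 81.5% of the jmj703 tags inside peaks. A further 157 WT IM peaks each spanned 2 jmj703 IM peaks, and 147 jmj703 IM peaks each spanned 2 WT IM peaks. Both cases were about equally frequent. The spanning peaks had a median length of 3119 bp in WT IM and 3012 bp in jmj703 IM.

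Paired peaks lay at nearly the same positions. The median WT peak was covered to 94.1% by its partner and the median jmj703 peak to 98.0%. The highest points of the 2 peaks, called summits, lay a median of 139 bp apart, with quartiles of 47 and 423 bp. They were within 200 bp of each other in 4768 of the 8140 pairs (58.6%, Wilson interval 57.5 to 59.6%). For peaks of at most 2 kb in WT IM this share was 66.6%, and for longer ones 51.1%.

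The level of H3K27me3 in a paired peak was similar in both genotypes, with a small excess in jmj703 IM. The median density was 6.20 in WT IM, with quartiles of 5.18 and 7.54. In jmj703 IM it was 6.91, with quartiles of 5.83 and 8.45. Across pairs, the 2 densities had a Spearman rho of 0.87 (n = 8140 pairs from the same 2 libraries, given as a description). The median log2 ratio of jmj703 over WT density was 0.16 (interval over pairs 0.16 to 0.17), which is 1.12-fold. The ratio was above 0 in 6785 pairs (83.4%).

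Single pairs rarely departed far from this common offset. A density at least 1.5-fold higher in jmj703 IM was found at 127 of the 8140 pairs, which is 1.56%. A density at least 1.5-fold lower was found at 0 pairs (0%, Wilson interval up to 0.0472%). Folds ran from 0.714 to 2.24, and the pairs on either side of the threshold had folds of 1.498 and 1.5. The SD of the log2 density ratio over pairs was 0.18, and the median SD that tag counting alone gives was 0.13. Once the ratios were centred on their median, 28 pairs were at least 1.5-fold higher and 5 at least 1.5-fold lower.

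The offset went with a difference in the floor of the lists. The lowest density called as a peak was 3.47 in WT IM and 4.11 in jmj703 IM, and the 5th percentile of density was 4.21 in the deeper WT list and 4.82 in the jmj703 list. The offset was present at every level of the mark. Among 5 bins of pairs by mean density, the median log2 ratio was 0.18 in the lowest and 0.16 in the highest, where WT IM peaks had a median of 8.98 and jmj703 IM peaks 10.1. The part of library depth and of the called floor in the offset was not tested.

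**Figure D1:**
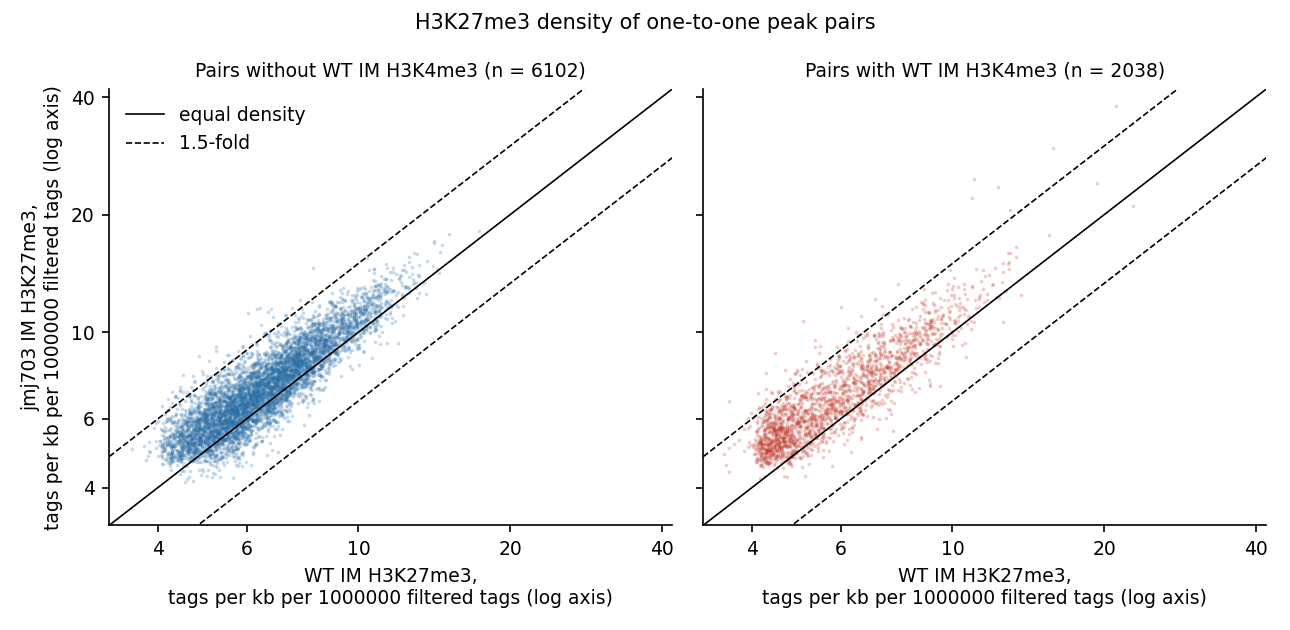
H3K27me3 density of each paired peak in WT IM (horizontal) and jmj703 IM (vertical), in tags per kb per 1000000 filtered tags on log axes, for pairs without (left, n = 6102) and with (right, n = 2038) a WT IM H3K4me3 peak. Each point is 1 pair, the solid line is equal density and dashed lines are 1.5-fold; points lie mostly just above the solid line and none lies below the lower dashed line.

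Paired peaks were slightly shorter in jmj703 IM. The median length was 2054 bp in WT IM and 1932 bp in jmj703 IM. The median log2 length ratio was -0.04 (interval over pairs -0.05 to -0.04), and 3216 pairs (39.5%) were longer in jmj703 IM. Lengths varied more than densities, with an SD of the log2 ratio of 0.38. At least 1.5-fold longer in jmj703 IM were 331 pairs, which is 4.07%, and at least 1.5-fold shorter were 700, which is 8.6%. The shorter pairs had median lengths of 2846 bp in WT IM and 1494 bp in jmj703 IM, and the longer pairs 1447 bp in WT IM and 2543 bp in jmj703 IM, values that the choice by length ratio sets apart. Density differed little in either set, with median log2 density ratios of 0.15 among the pairs that were longer and 0.16 among those that were shorter. Both edges lay within 100 bp of their WT position in 2155 pairs (26.5%).

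The largest differences in length were seen at long peaks of one genotype that held a much shorter peak of the other. The WT IM peak on chromosome 4 from 27394267 to 27399780 was 5514 bp long with 803 tags, and its jmj703 IM partner was 955 bp long with 158 tags, from 27397812 to 27398766. Density was 6.36 in WT IM and 11.5 in jmj703 IM, averaged over called regions of unequal length and so not comparable, and the deposited fold enrichments were 3.98 and 3.65. Summits were 42 bp apart. On chromosome 1, a WT IM peak from 16861495 to 16867458 with 886 tags was matched by a jmj703 IM peak from 16866084 to 16867344 with 125 tags, at densities of 6.49 and 6.91.

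The opposite case was seen on chromosome 3. There the WT IM peak from 14481102 to 14482715 (1614 bp, 288 tags) faced a jmj703 IM peak from 14477192 to 14482612 (5421 bp, 599 tags). The start lay further out in jmj703 IM while the summits were 14 bp apart, and density was 7.80 in WT IM and 7.71 in jmj703 IM. On chromosome 12, a peak of 1249 bp in WT IM, from 26164644 to 26165892, corresponded to 4182 bp in jmj703 IM, from 26164110 to 26168291. The summits were 4 bp apart, and neither WT SAM nor SDG711 RNAi IM had an H3K27me3 peak there. None of these 4 regions overlapped an H3K4me3 peak in either IM list. Among the remaining length extremes, the WT IM peaks on chromosome 4 starting at 18976178 and at 2358281 did overlap WT IM H3K4me3. Those starting at 6846040 of chromosome 1 and at 17237453 of chromosome 11 did not.

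Broad Polycomb regions gave a like picture. When peaks of a library at most 1 kb apart were joined, 962 one-to-one joined pairs reached 5 kb in at least one genotype. Of these, 535 reached 5 kb in both, 279 in WT IM alone and 148 in jmj703 IM alone. Their median length was 5716 bp in WT IM and 5456 bp in jmj703 IM. The median log2 density ratio was 0.15, with quartiles of 0.06 and 0.25. At least 1.5-fold denser in jmj703 IM were 9 of the 962, against 128 of all 8085 joined pairs. In either set, 0 were 1.5-fold less dense.

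Pairs were then split by H3K4me3, using overlap of the WT IM H3K27me3 peak with a WT IM H3K4me3 peak. Overlap was read from separate libraries, so a pair with both marks need not carry them on one molecule. Of the 8140 pairs, 2038 had H3K4me3 (25.04%) and 6102 did not. Pairs with H3K4me3 were shorter and less dense than those without, at medians of 1526 against 2224 bp and densities of 5.56 against 6.35 in WT IM. In jmj703 IM the medians were 1528 against 2077 bp and 6.47 against 7.03.

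The excess of density in jmj703 IM was somewhat larger where H3K4me3 was present. The median log2 density ratio was 0.21 with H3K4me3 (interval over pairs 0.20 to 0.22) and 0.15 without (0.14 to 0.15). At least 1.5-fold higher density was found at 63 of 2038 pairs with H3K4me3 (3.09%, Wilson interval 2.42 to 3.94%) and at 64 of 6102 without (1.05%, 0.822 to 1.34%), where the background over all pairs was 1.56%. Tags were fewer with H3K4me3, at medians of 199 against 328 in WT IM and 145 against 212 in jmj703 IM. The median SD from tag counting was 0.16 against 0.13. In 5 bins by mean length, shortest to longest, the shares were 3.39%, 4.86%, 3.64%, 1.81% and 0.334% with H3K4me3. Without H3K4me3 they were 2.28%, 1.28%, 0.905%, 0.666% and 0.527%. The part of tag counting in the contrast was not tested. Length was nearly the same in both genotypes with H3K4me3, at a median log2 ratio of -0.01, and was a little lower in jmj703 IM without it, at -0.05. Among pairs with H3K4me3, 127 (6.23%) were at least 1.5-fold shorter in jmj703 IM, and among those without 573 (9.39%), where the background was 8.6%. The shares at least 1.5-fold longer were 4.07% and 4.06%.

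**Figure D2:**
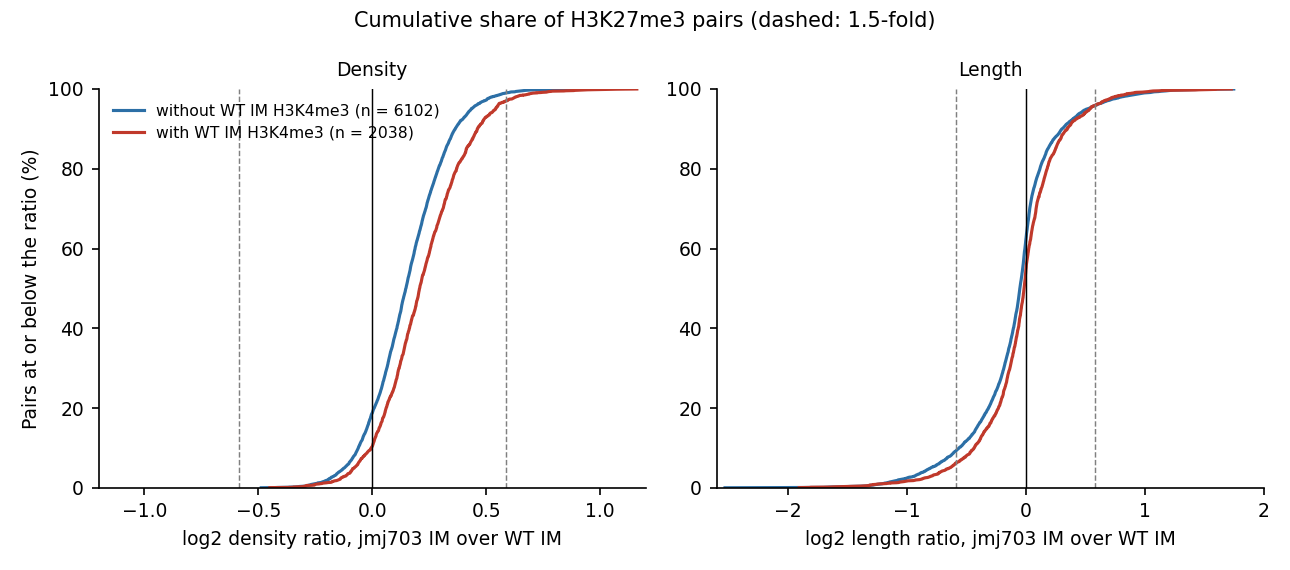
Cumulative share of pairs (vertical, %) by log2 ratio of jmj703 IM over WT IM for density (left) and length (right), for pairs with and without a WT IM H3K4me3 peak. Dashed lines mark 1.5-fold; the density curve of pairs with H3K4me3 lies to the right, with medians of 0.21 and 0.15, and the length curves lie close together, with medians of -0.01 and -0.05.

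The difference between pairs with and without H3K4me3 varied with peak length and with the extent of H3K4me3. Pairs were placed in 5 bins of equal number by mean length. In the shortest bin, the median log2 density ratio was 0.23 with H3K4me3 (n = 708) and 0.18 without (n = 920). In the second bin, with a median of 1484 bp in WT IM, the median log2 density ratio was 0.25 with H3K4me3 (n = 453) and 0.14 without (n = 1175). In the third bin it was 0.18 (n = 302) and 0.14 (n = 1326), and in the fourth 0.17 (n = 276) and 0.14 (n = 1352). In the bin of the longest pairs, with a median of 4740 bp in WT IM, it was 0.17 (n = 299) and 0.15 (n = 1329). By the share of the WT H3K27me3 peak that H3K4me3 covered, the ratio was 0.16 for cover of up to 25% (n = 386), 0.18 for 25 to 50% (n = 275), 0.16 for 50 to 75% (n = 217) and 0.24 above 75% (n = 1160). The gap was thus widest in the second length bin and did not grow steadily as peaks became shorter. By cover, the ratio was highest above 75%, where pairs had a median length of 1192 bp in WT IM and 1229 bp in jmj703 IM, and densities of 4.82 and 5.83.

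Where H3K4me3 lay at one side of a pair, the median signed shift was less inward for edges on that side than on the other side. In 578 pairs all WT IM H3K4me3 peaks lay on one side of the middle of the H3K27me3 peak. Shifts are counted as positive outward. The facing edge had a median shift of -9.5 bp in jmj703 IM (quartiles -116.8 and 67.8 bp). The other edge had one of -28.5 bp (quartiles -243.75 and 42.75 bp). The paired difference was 34.5 bp (interval over pairs 7 to 61), and the facing edge was the more outward of the 2 in 319 pairs (55.2%). With the jmj703 IM H3K4me3 list the difference was 31 bp in 417 pairs, with an interval of -8 to 67. These median shifts and differences are small beside the fragment length of 200 to 750 bp.

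The share of H3K4me3 peaks that overlapped H3K27me3 varied with the level of H3K4me3. WT IM H3K4me3 peaks were ranked by their own density and divided into 5 bins of equal number. In the lowest bin, 20.9% of the 4437 H3K4me3 peaks overlapped a WT IM H3K27me3 peak and 20.6% a jmj703 IM one. The share there was higher for WT SAM, at 27.4%, and lower for SDG711 RNAi IM, at 13.9%. In the next to strongest bin the shares were lower, at 4.91% for WT IM and 6.88% for jmj703 IM. In the bin with the strongest H3K4me3 the share was 24.7% (interval 23.4 to 26.0%) for WT IM and 27.1% (25.8 to 28.4%) for jmj703 IM, against 11.9% for WT SAM and 6.74% for SDG711 RNAi IM. For H3K27me3 peaks with p of at most 1e-10 the share in the strongest bin was 7.71% for WT IM and 10.4% for jmj703 IM. In the lowest bin it was then 15.1% for WT IM and 13.4% for jmj703 IM.

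Pairs on strong and on weak H3K4me3 differed in length, level and presence in other lists. The 714 pairs on the weakest bin had a median length of 2080 bp and a WT density of 6.41, and 88.5% of them had an H3K27me3 peak in WT SAM. The 676 pairs on the strongest bin had a median length of 1146 bp and a WT density of 4.62, lay within H3K4me3 over a median of 100% of their length, and had an H3K27me3 peak in WT SAM in 30.0% and in SDG711 RNAi IM in 30.9%. Their jmj703 density was 5.56, a median log2 ratio of 0.25 (interval over pairs 0.24 to 0.27), and was above that of WT in 642 of 676 pairs (94.97%). On the weakest bin the ratio was 0.16 (0.15 to 0.18), close to the 0.15 of pairs without H3K4me3. Over the bins from weakest to strongest the median ratio was 0.16, 0.19, 0.19, 0.23 and 0.25. At the deposited cutoff, the share of H3K4me3 peaks with H3K27me3 was instead high in the weakest and the strongest bins. The strongest bin also had the lowest median H3K27me3 densities, at 4.62 in WT IM and 5.56 in jmj703 IM. The 5th percentiles of density were 4.21 in the WT IM list and 4.82 in the jmj703 IM list. The parts of H3K4me3 level and of the called floor in the ratio were not tested. No control library was used for calling, per the file headers.

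**Figure D3:**
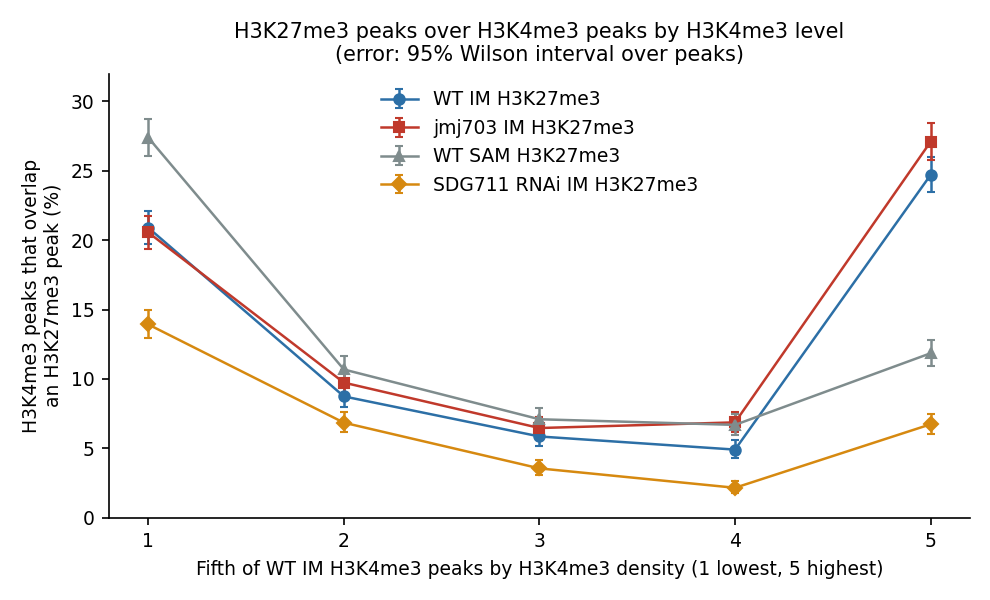
Share of WT IM H3K4me3 peaks (vertical, %) that overlap an H3K27me3 peak of each of the 4 H3K27me3 lists, by H3K4me3 density in 5 bins (horizontal, 1 lowest to 5 highest; error bars are 95% Wilson intervals over peaks). The share is 20.9% for WT IM and 20.6% for jmj703 IM in bin 1, 4.91% and 6.88% in bin 4, and 24.7% and 27.1% in bin 5. WT SAM is higher than both in bin 1, at 27.4%, and lower in bin 5, at 11.9%. SDG711 RNAi IM is at 13.9% in bin 1 and 6.74% in bin 5. The lists differ in depth.

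The change of H3K4me3 itself did not sort the pairs. For 1601 pairs whose WT IM H3K4me3 peak had a single partner in jmj703 IM, the log2 H3K4me3 density ratio was used to form 4 bins. In the bin with the lowest H3K4me3 ratio, at a median of 0.13, the median H3K27me3 ratio was 0.21. In the bin with the highest H3K4me3 ratio, at 0.82, it was also 0.21, and the middle bins had 0.22 and 0.23. The H3K4me3 library of jmj703 IM was the shallowest used, at 4869161 tags, and its peaks had a median length of 1221 bp and a lowest density of 6.15, against 1570 bp and 3.72 in WT IM. The H3K4me3 ratios were offset as well, with a median of 0.37 over 18748 H3K4me3 pairs.

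At 104 pairs only jmj703 IM had an H3K4me3 peak, against 5944 with H3K4me3 in neither IM list, 516 in WT IM alone and 1576 in both. Their median H3K27me3 density was 6.34 in WT IM and 7.31 in jmj703 IM. The median log2 ratio was 0.20 (interval over pairs 0.14 to 0.25), against 0.15 for pairs in neither list and 0.16 for those with H3K4me3 in WT IM alone. At least 1.5-fold higher were 5 of the 104 (4.81%, Wilson interval 2.07 to 10.8%, against 1.56% over all pairs), and 0 were 1.5-fold lower. The difference of 0.05 from pairs with H3K4me3 in neither list has an interval over pairs of -0.01 to 0.11, which includes 0.

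The strongest jmj703-specific H3K4me3 peak on a pair lay on chromosome 5, at an H3K27me3 peak from 25378271 to 25379380 in WT IM. H3K4me3 density in jmj703 IM was 28.3 and no WT IM H3K4me3 peak was listed. H3K27me3 density was 4.45 in WT IM (113 tags) and 4.65 in jmj703 IM (68 tags), 1.05-fold with a counting interval of 0.763 to 1.43. The same fold, 1.05, was found on chromosome 1 from 8855072 to 8856048, where H3K4me3 density in jmj703 IM was 18.1. On chromosome 2 from 13091973 to 13096002, with H3K4me3 at 15.3 in jmj703 IM, H3K27me3 was 9.27 in WT IM and 12.2 in jmj703 IM, 1.32-fold (1.18 to 1.46).

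Peaks of one genotype without a partner were short and weak in both lists. In WT IM, 2589 of 11157 peaks had no jmj703 IM peak, which is 23.2% (Wilson interval 22.4 to 24.0%), with a median of 135 tags and 1246 bp. In jmj703 IM, 2167 of 10745 had no WT IM peak, which is 20.2% (19.4 to 20.9%), with a median of 85 tags and 1100 bp. Their median −log10 p was 7.29 in WT IM and 7.15 in jmj703 IM, near the calling cutoff of 1e-05, against 17.1 and 14.0 for paired peaks. Among peaks with p of at most 1e-10, 592 of 7074 WT IM peaks (8.37%) and 435 of 6333 jmj703 IM peaks (6.87%) had no partner at any p.

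The 2 lists differed in where such peaks lay with respect to H3K4me3. Of the jmj703 IM peaks without a partner, 1046 of 2167 overlapped a WT IM H3K4me3 peak (48.3%, Wilson interval 46.2 to 50.4%). For WT IM peaks without a partner this was 774 of 2589 (29.9%, 28.2 to 31.7%), and for paired WT IM peaks 25.04%. Seen from the lists, 33.4% of the jmj703 IM peaks on H3K4me3 had no WT IM peak (31.8 to 35.1%), against 14.7% of those off H3K4me3 (13.9 to 15.5%), where the background was 20.2%. The WT IM peaks without a jmj703 IM partner were 26.9% on H3K4me3 and 21.9% off it, where the background was 23.2%.

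At p of at most 1e-10 the asymmetry was seen in the jmj703 IM list alone. There, 12.3% of jmj703 IM peaks on H3K4me3 had no WT IM peak (10.8 to 14.0%) and 4.99% of those off it (4.40 to 5.65%), against a background of 6.87%. In WT IM the shares were 8.39% and 8.36%, against a background of 8.37%. WT IM had more tags and a lower called floor than jmj703 IM. The spread of these shares between libraries of one genotype is unknown.

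**Figure D4:**
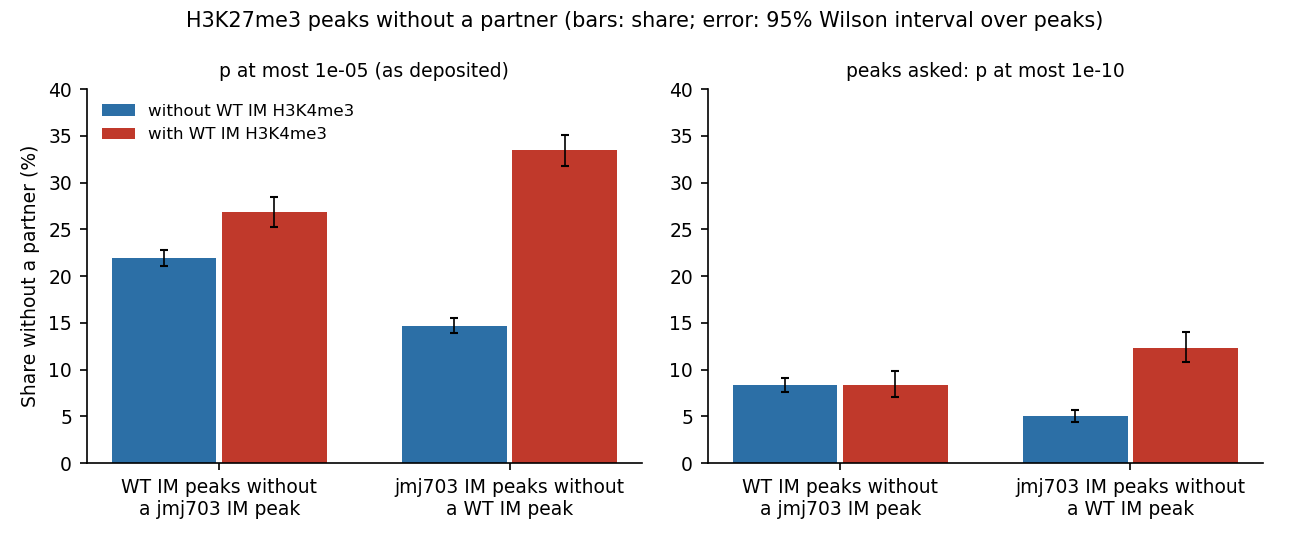
Share of H3K27me3 peaks without a partner in the other genotype (bars, %), for peaks with and without a WT IM H3K4me3 peak, at the deposited cutoff (left) and for peaks with p of at most 1e-10 (right; error bars are 95% Wilson intervals over peaks). In jmj703 IM the share is higher with H3K4me3 at both cutoffs (33.4% against 14.7%, and 12.3% against 4.99%), whereas in WT IM it is 26.9% against 21.9% and then 8.39% against 8.36%.

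The jmj703 IM peaks without a partner on H3K4me3 were again often nested in strong H3K4me3. Of the 1046, 531 (50.8%) lay in the strongest bin of H3K4me3 peaks, with a median length of 1005 bp and a density of 5.11. That bin held 1211 of all 3128 jmj703 IM peaks on H3K4me3, and 676 of the 2038 pairs on H3K4me3 (33.2%). Wholly within H3K4me3 were 846 of the 1046 (80.9%), against 853 of 2011 paired jmj703 IM peaks on H3K4me3 (42.4%). Summits of the 1046 were a median of 119 bp from the H3K4me3 summit, against 216 bp for paired jmj703 IM peaks on H3K4me3. The 1046 were also shorter than those paired peaks, at medians of 1006 and 1534 bp. The part of peak length in the nesting and in the summit distance was not tested. WT IM peaks without a partner on H3K4me3 were similar, 418 of 774 (54.0%) being on the strongest bin, at a median length of 1014 bp. Of the 774, 560 (72.4%) lay wholly within H3K4me3. For peaks with p of at most 1e-10, the share without a partner on the strongest bin was 22.6% in jmj703 IM, 105 of 464, with an interval of 19.1 to 26.7%. It was 13.5% in WT IM, 46 of 341, with an interval of 10.3 to 17.5%. On the weakest bin it was 5.87% in jmj703 IM and 8.81% in WT IM.

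Off H3K4me3, many peaks without a partner were listed in other tissues or genotypes. Of the 1121 such jmj703 IM peaks, 497 had an H3K27me3 peak in WT SAM (44.3%) and 432 in SDG711 RNAi IM (38.5%), while 381 (34.0%) had neither. Of the 1046 on H3K4me3, 24.2% had a WT SAM peak, 11.3% an SDG711 RNAi IM peak and 69.1% neither. The 774 WT IM peaks without a partner on H3K4me3 were similar, at 30.1%, 11.0% and 63.6%. For paired jmj703 IM peaks the shares were 75.5% in WT SAM and 71.2% in SDG711 RNAi IM. For those paired peaks that lay on H3K4me3 they were 67.2% and 55.7%. Among the 1815 WT IM peaks without a partner and off H3K4me3, 923 (50.9%) had a peak in WT SAM and 466 (25.7%) in SDG711 RNAi IM.

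Single regions show the forms these differences took. The most significant jmj703 IM peak without a partner spanned 12315300 to 12318108 of chromosome 11. It had 841 tags, a density of 20.9 and a deposited fold enrichment of only 4.35 over its surroundings. Another lay close by, from 12325244 to 12329660, where jmj703 IM held 1013 tags at 16.0, WT SAM had 18.6 and SDG711 RNAi IM 25.6. No other H3K27me3 list had a peak at the first. H3K4me3 density in jmj703 IM was high at both, 37.6 and 36.9. In WT IM the first had no H3K4me3 peak, and at the second H3K4me3 density was 14.0. The one ranked after the first, from 10676344 to 10678077 of chromosome 3, held 260 tags at a density of 10.5, where H3K4me3 was 7.78 in WT IM and 8.17 in jmj703 IM and where no other H3K27me3 list had a peak.

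Regions off H3K4me3 were also among them. On chromosome 11 from 8410121 to 8411833, jmj703 IM had 250 tags at a density of 10.2 and a deposited fold enrichment of 6.72, WT SAM had 5.91 and SDG711 RNAi IM 7.25, so that of the 4 H3K27me3 lists WT IM alone lacked a peak. On chromosome 6 from 12364734 to 12367687, jmj703 IM had 328 tags at 7.74 and SDG711 RNAi IM 9.54, and neither WT list had a peak.

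The WT IM peaks without a partner that ranked highest were mostly long. The first spanned 26456893 to 26462200 of chromosome 4. Its 1119 tags gave a density of 9.21, close to WT SAM at 9.12 and SDG711 RNAi IM at 10.7. On the same chromosome from 32660803 to 32666546, WT IM held 1291 tags at 9.82 and WT SAM was at 9.78, with no peak in SDG711 RNAi IM. On chromosome 10 from 8134974 to 8140614, with 1227 tags at 9.50, no other H3K27me3 list had a peak, and H3K4me3 was 9.13 in WT IM and 15.7 in jmj703 IM. The other 2 lay on chromosome 2 from 28719164 to 28721603, with 1080 tags at 19.3 and H3K4me3 at 21.6 in WT IM, and on chromosome 6 from 30312733 to 30317548, with 1085 tags at 9.84. Lengths ran from 2440 to 5744 bp, and the authors' deposited fold enrichments over the surroundings from 2.63 to 3.54.

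Pairs at the ends of the density ratio, among those with at least 100 tags in each library and lengths within 2-fold, showed how far H3K27me3 differed at one place. With H3K4me3, the highest ratio was at the very start of chromosome 5, from 1 to 783, with a density of 11.0 in WT IM (198 tags) and 24.7 in jmj703 IM (278 tags). This is 2.24-fold, with a counting interval of 1.86 to 2.70. H3K27me3 there was 14.8 in WT SAM and 22.4 in SDG711 RNAi IM, and H3K4me3 was 9.78 in WT IM and 46.6 in jmj703 IM, so that the densities of both marks differed in the same direction. The start of chromosome 2, from 1 to 823, was alike, at 10.9 in WT IM and 22.1 in jmj703 IM, 2.02-fold (1.68 to 2.44). Of the 9 pairs in the first 10 kb of a chromosome, 5 were at least 1.5-fold higher in jmj703 IM, and without them 122 of 8131 pairs were.

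Away from chromosome starts, the largest ratio with H3K4me3 was on chromosome 3 from 29526078 to 29527123. Density was 5.05 in WT IM (121 tags) and 10.7 in jmj703 IM (248 tags), 2.11-fold (1.69 to 2.64), and the peak was 1.55 times as long in jmj703 IM. H3K4me3 at this place was 16.6 in WT IM and 35.9 in jmj703 IM, and WT SAM had no H3K27me3 peak. On chromosome 2 from 2824177 to 2825473, H3K27me3 was 4.45 in WT IM and 8.85 in jmj703 IM, 1.99-fold (1.58 to 2.52), beside 11.1 in WT SAM and 8.09 in SDG711 RNAi IM. There WT IM was the lowest of the 4 libraries.

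Without H3K4me3, the highest ratios were at peaks of 1099 to 4562 bp in WT IM. On chromosome 2 from 2424301 to 2426635, density was 6.04 in WT IM (323 tags) and 11.2 in jmj703 IM (606 tags), 1.86-fold (1.62 to 2.13), and WT SAM had 5.35. On chromosome 7 from 28776496 to 28777594 it was 6.28 in WT IM and 11.5 in jmj703 IM, 1.83-fold (1.51 to 2.23), with 13.0 in SDG711 RNAi IM and no WT SAM peak. On chromosome 3 from 4420395 to 4423578 it was 8.12 in WT IM and 14.6 in jmj703 IM, 1.80-fold (1.61 to 2.01), with 5.74 in WT SAM and 13.2 in SDG711 RNAi IM. The fourth, on chromosome 11 from 19919770 to 19924331, had 6.69 and 11.5, 1.72-fold (1.52 to 1.93). In the order named, called lengths in WT IM were 2335, 1099, 3184 and 4562 bp. In jmj703 IM they were 3768, 1974, 3477 and 2817 bp. Deposited fold enrichments were 3.18, 3.08, 3.49 and 4.25 in WT IM and 3.23, 5.16, 4.1 and 5.05 in jmj703 IM. Densities are averages over these called regions, and the counting intervals do not cover their unequal lengths. The 4 pairs were chosen by their jmj703 IM ratio, so that excess is set by the choice. In 3 of the 4, the SDG711 RNAi IM density was also above the WT IM density by more than 1.5-fold. Over all pairs the median density was 6.20 in WT IM and, where a peak was listed, 8.04 in SDG711 RNAi IM, so those lists are offset too. The exception was the region on chromosome 2, with 7.73 in SDG711 RNAi IM.

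The lowest ratios were modest. Without H3K4me3, the lowest was on chromosome 4 from 19169652 to 19171584, with 6.74 in WT IM (298 tags) and 4.99 in jmj703 IM (108 tags), 0.741-fold (0.589 to 0.927), beside 9.73 in WT SAM and no peak in SDG711 RNAi IM. Next was chromosome 2 from 22857620 to 22859273, with 7.79 in WT IM and 5.80 in jmj703 IM, 0.744-fold (0.595 to 0.925). With H3K4me3, the lowest was on chromosome 1 from 8248257 to 8249224, with 7.09 in WT IM (157 tags) and 5.67 in jmj703 IM (119 tags), 0.799-fold, whose counting interval of 0.625 to 1.02 includes equality. On chromosome 12 from 404732 to 408074, densities of 9.03 and 7.29 gave 0.808-fold (0.692 to 0.940), and the jmj703 IM peak was shorter, at 2180 against 3343 bp.

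**Figure D5:**
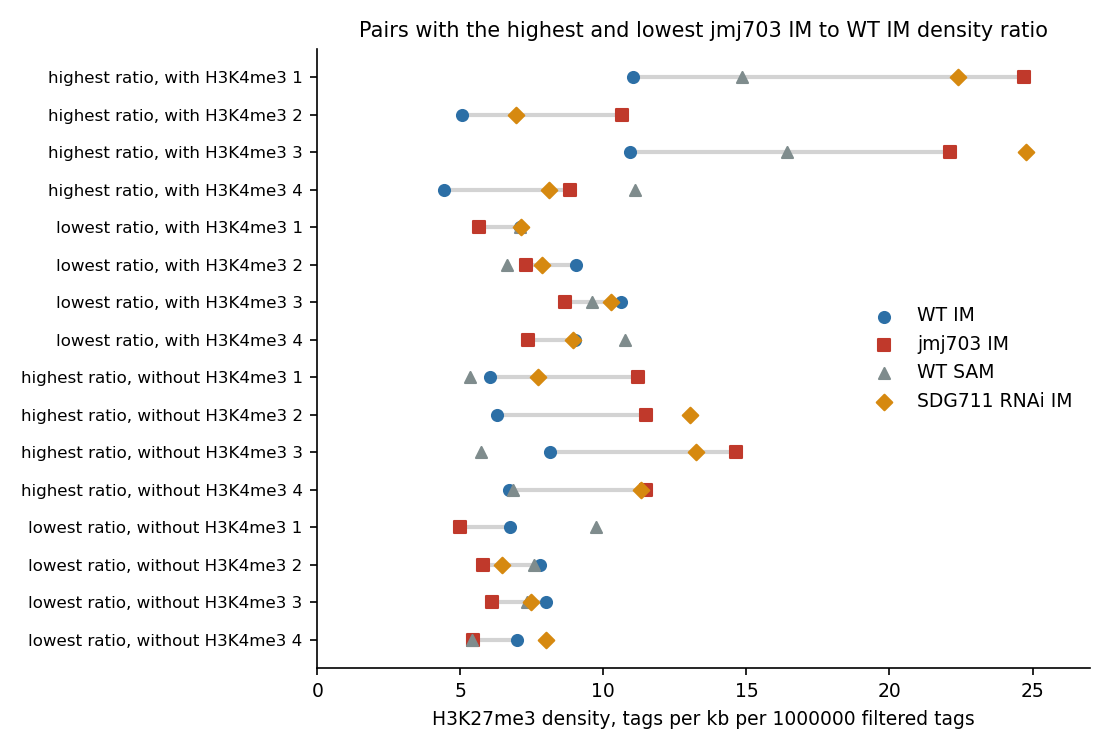
H3K27me3 density (horizontal, tags per kb per 1000000 filtered tags) in WT IM, jmj703 IM, WT SAM and SDG711 RNAi IM at the 4 pairs with the highest and the 4 with the lowest jmj703 IM to WT IM ratio, with and without H3K4me3, numbered in order of the ratio. Grey bars join WT IM and jmj703 IM and a missing point means that no peak was listed; bars of the highest ratios span up to 11.0 to 24.7, and those of the lowest are short, such as 6.74 to 4.99.

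The densest H3K27me3 pairs of both libraries were also dense in H3K4me3 in 3 of 4 cases. They lay on chromosome 4 from 995 to 2417 (21.1 in WT IM, 38.02 in jmj703 IM), on chromosome 10 from 996 to 1571 (22.8 and 21.1), and on chromosome 1 from 16910113 to 16915497 (19.3 and 24.1). H3K4me3 in jmj703 IM was 101 at the first, 84.1 at the second and 39.3 at the third. In WT IM it was 19.98, 16.11 and 21.71. H3K27me3 in these 3 regions was also high in WT SAM, at 29.6, 18.3 and 22.1. In SDG711 RNAi IM it was 45.6, 28.3 and 30.4. The first and the second lay in the first 10 kb of a chromosome. At the third, deposited fold enrichments of H3K27me3 were 3.26 in WT IM and 3.82 in jmj703 IM. Why these regions were dense in every list was not tested. The fourth, on chromosome 3 from 6018850 to 6021057, had no H3K4me3 peak in either IM list, with 17.4 in WT IM (877 tags) and 18.1 in jmj703 IM (575 tags), 1.04-fold (0.938 to 1.16).

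The 127 pairs that were at least 1.5-fold denser in jmj703 IM were chosen by that ratio, so their levels are a description. Their median density was 5.05 in WT IM and 8.05 in jmj703 IM, against 6.20 and 6.91 over all pairs. Median lengths were 1405 and 1486 bp. Median tags were 161 in WT IM and 180 in jmj703 IM, against 296 and 193 over all pairs. H3K4me3 was present at 63 of them (49.6%), against 25.04% of all pairs. Of the 127, 96 (75.6%) had a WT SAM peak and 90 (70.9%) an SDG711 RNAi IM peak, close to the 75.9% and 71.4% of all pairs.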

How the data were processed

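ChIP-seq peak lists of 6 libraries were used. Per the file headers, peaks of every library were called by the authors on its own, using MACS 1.4.0rc2 with duplicate-removed alignments and no control library, at a p cutoff of 1e-05, and kept at most 2 to 3 tags at a position. Per the submitters' processing notes, Bowtie2 2.1.0 and Trimmomatic 0.32 were among the tools, with no role stated. The deposited count of a peak is its raw number of tags. The deposited score, −10 log10 of the Poisson p, and the deposited fold enrichment, a ratio of peak height to the regional background of the same library, were used only to rank, filter or describe peaks. The filtered tags of the headers equalled the total tags. Starts below 1 were set to 1.

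Density was tags per kb per 1000000 filtered tags. A list with fewer tags needs a higher density to pass the cutoff. Shares have Wilson intervals, medians have binomial intervals over pairs, and folds of single pairs have exact Clopper-Pearson counting intervals, all at 95%. With 1 library in a group, nothing was tested. Tags without molecular identifiers are not independent molecules. Pairing and ratios were tested on simulated data. Named regions were the extremes of density ratio (at least 100 tags, lengths within 2-fold), of length ratio, of density and of H3K4me3 in jmj703 IM alone, 4 each, and the 5 most significant peaks without a partner in each list; some are summarised only by count or left out. The members and rules were chosen with earlier results of these data known. Python 3.11.15, pandas 2.3.3 and scipy 1.17.1 were used.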

Additional observations from a re-analysis of the deposited data

How the results depend on the processing

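Direction was the same under every setting run for the results below, apart from the centred density ratio, which is 0 by construction, but several differences below have intervals that include 0, as given. The median log2 density ratio was 0.18 when scaled by tags outside peaks. Centring on the median of all pairs left 28 pairs at least 1.5-fold higher and 5 lower. With peaks of p at most 1e-10 there were 5146 pairs, of which 66 were 1.5-fold denser, 186 longer and 386 shorter in jmj703 IM, since fewer peaks enter. With at least 100 tags in each library the median log2 length ratio was -0.026. The difference in log2 density ratio between pairs with and without H3K4me3, 0.06, was 0.076 with the jmj703 IM H3K4me3 list, 0.085 when H3K4me3 had to cover 50% of the peak, and 0.040 in pairs above 1.5 kb. For length the difference, 0.036, was 0.050 with cover of 50%, 0.068 in pairs of up to 1.5 kb and 0.020 above (interval -0.0027 to 0.037).

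The share without a partner was 8.37% in WT IM and 6.87% in jmj703 IM at p of at most 1e-10, 21.6% and 18.8% when a gap of 500 bp counted as overlap, and 38.5% and 34.3% among peaks of up to 1.5 kb. The difference in this share with minus without H3K4me3 in WT IM was 4.92 points, but 0.031 at p of at most 1e-10 (-2.01 to 2.22) and 0.0855 in peaks of up to 1.5 kb (-4.11 to 4.30). In jmj703 IM it was 18.7 points, 7.32 at p of at most 1e-10 and 23.5 in peaks of up to 1.5 kb. The log2 excess at pairs with H3K4me3 in jmj703 IM alone, 0.05, was 0.12 with jmj703 IM H3K4me3 of p at most 1e-10 (n = 22, interval -0.03 to 0.34). The settings by length and without chromosome starts were chosen after seeing the data. No paired analysis was possible because each group compared had 1 library. Depth limits the weakest peaks of both lists.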

Other observations

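The small excess of H3K27me3 density in jmj703 IM was spread over all 12 chromosomes. The median log2 density ratio of pairs ran from 0.14 on chromosome 8 to 0.17 on chromosome 5. Median log2 length ratios ran from -0.06 on chromosome 10 to -0.03 on chromosome 3. The share of jmj703 IM peaks without a WT IM peak was 16.7% on chromosome 8 and 17.1% on chromosome 10, and it was 23.0% on chromosomes 2 and 3.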
